A study of Mus musculus with 8 samples.

Results

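Cartilage owes its stiffness under load to large aggregates that chondrocytes secrete between the collagen fibrils. The genes described here encode the protein parts of those aggregates and of the adaptors around them. They were chosen by name, with no threshold on a measured value: the aggregating proteoglycans *Acan* and *Vcan*, the link proteins *Hapln1*, *Hapln3* and *Hapln4*, cartilage oligomeric matrix protein (*Comp*) and the matrilins *Matn1* to *Matn4*. All 10 were listed among the 52325 gene identifiers of each library, and 9 of them were among the 17177 genes tested.

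RNA-seq was performed on costal (rib) chondrocytes, released with collagenase from 7-d-old mice on a C57BL/6J background. There were 4 wild-type libraries and 4 *Mir140*-null libraries, and no other allele or treatment is named. In the null mice CRISPR/Cas9 removed the *Mir140* locus, from which miR-140-5p and the miR-140-3p isomiRs are made, through the germline. The founders were a mix of C57BL/6 and CBA/ca and were then bred onto C57BL/6J. Both lines descend from crosses of heterozygous animals, so a difference between lines and an effect of genotype cannot be told apart. Whether a library came from a single animal is not given in the sources used here, and the p-values measure the spread between these libraries only.

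In cartilage, many aggrecan molecules bind along a chain of hyaluronan through their N-terminal domain, and a link protein locks each of them in place. The chondroitin sulfate chains that aggrecan carries hold water and give the tissue its resistance to compression. COMP and the matrilins are multimeric adaptor proteins that connect collagen fibrils, aggrecan and each other. Human mutations in *COMP* and *MATN3* cause skeletal dysplasias of the growth plate.

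The level of a gene is given in transcripts per 1000000 transcripts of the library (TPM), which is scaled by transcript length, so levels of different genes can be compared. Read counts per gene were not analysed here, so the reads behind a value are unknown. *Mir140* itself was listed at 0 in 7 libraries and reached 8.86 TPM in *Mir140*-null replicate 2. This goes against that label, but with all wild-type libraries at 0 the precursor is no check of genotype here, and libraries are called by their labels throughout. Without *Mir140*-null replicate 2, *Acan* and *Hapln1* were still called and *Matn4* was not. *Wwp2*, its host gene, lay between 261 and 459 TPM and was not called (log2 fold change -0.16, limma adjusted p = 0.487). Transcripts of the mitochondrial genome took 4.06% to 6.98% of the TPM in wild-type and 8.41% to 10.1% in null libraries. *Acan*, *Hapln1* and *Matn4*, the 3 genes called below, were also called when TPM were rescaled without them. *Mir140*-null replicates 1 and 2 stood apart from the other 6 libraries. They had 15800 and 16056 genes at 0.5 TPM or more, against 16991 to 17950 elsewhere. The summed level of 9 markers of fibroblasts and perichondrium was 602 TPM and 759 TPM in these 2 libraries, 3974 and 5462 TPM in *Mir140*-null replicates 3 and 4, and 3179 to 6151 TPM in the wild-type libraries. Of the 9 markers, 8 were lower in both than in any other library, and none was at 0. The same held for 3 other lists: 4 of 5 red blood cell markers, 5 of 6 leukocyte markers and 4 of 5 endothelial markers were lower in both than in every other library. In the remaining lists this held for 2 of 5 osteoblast, 4 of 8 muscle, 2 of 7 hypertrophic and 0 of 10 chondrocyte markers. The summed osteoblast markers were at 5.32 and 3.86 TPM in these 2 libraries. They were at 12.9 to 14.2 TPM in the other null and 9.97 to 16.9 TPM in wild-type libraries. The summed muscle markers were lower in every null library (34.6 to 58.3 TPM) than in any wild-type library (64.2 to 98.9 TPM). Of these 8 markers none was called, and 4 were under 0.5 TPM in all libraries. *Tnnt3*, the highest of them, overlapped between the groups, at 40.4 to 73.1 TPM in wild-type and 28.4 to 54.4 TPM in null libraries. The part of the muscle markers in the results was not tested. The 10 chondrocyte markers were detected throughout, at a summed 52264 to 72882 TPM in null and 68934 to 85499 TPM in wild-type libraries. Of these markers 1 was called higher and 3 lower, beside 10.5% of all tested genes called higher and 6.4% lower. The 3 lower markers are the fibril collagen genes described below, whose calls were lost without *Mir140*-null replicates 1 and 2. The change of each of the 9 tested members is therefore also given without *Mir140*-null replicates 1 and 2. In bulk samples such as these, fewer cells of a type and less RNA per cell cannot be told apart.

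Mature miR-140-3p is shown because its 5′ end defines the isomiR seeds, and RefSeq (GRCm38.p6) places it at chr8:107551288-107551308 on the plus strand. It is printed 5′ to 3′ with the seed in capitals, first as annotated and then for the isomiR that starts 1 base further in.
miR-140-3p.2, annotated start: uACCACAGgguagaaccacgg
miR-140-3p.1, later start: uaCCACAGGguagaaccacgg
For each gene the longest 3′UTR in GENCODE M21 (mm10) was searched, on the transcript strand only, for 7 bases that pair with bases 2 to 8. These were CCTGTGG for miR-140-3p.1, then CTGTGGT for the annotated start, miR-140-3p.2, and AACCACT for miR-140-5p. The first and the second overlap by 6 bases. Among the 12975 tested genes with such a 3′UTR, 20.2% held the first word, 19.0% the second and 10.9% the third. Of the 10 genes only *Comp* and *Hapln4* held any, in the windows searched. The 167-base 3′UTR of *Comp* held 1 miR-140-3p.2 match, within chr8:70381954-70381976, plus strand. The 2341-base 3′UTR of *Hapln4* held 2 matches of each miR-140-3p isomiR. The first miR-140-3p.1 match starts at base 145 and the first miR-140-3p.2 match at base 146, so these overlap and are not separate places. The stretch around this miR-140-3p.1 match is shown, within chr8:70088658-70088680, plus strand. These 23-base stretches, each a 7-base match with 8 bases on either side, are shown with the match in capitals, to give the *Comp* match and 1 of the *Hapln4* matches with their flanks.
Comp 3′UTR, miR-140-3p.2 match: ctgatggaCTGTGGTggcacaag
Hapln4 3′UTR, miR-140-3p.1 match: tctagctaCCTGTGGtctttgga
None of the 3 words occurred in the 3′UTR of *Acan* (823 bases), *Hapln1* (3503 bases) or *Matn4* (263 bases), the genes that changed with genotype below. A match is a description of the sequence, and a missing match says only that these letters were not in this window.

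In wild-type chondrocytes the 10 genes spanned a wide range of levels. *Comp* was highest at 1797 ± 205 TPM (mean ± SD, n = 4 for this and every following mean), ranking 78 among all listed genes. *Acan* followed at 552 ± 105 TPM, *Hapln1* at 358 ± 16.1 TPM and *Matn3* at 241 ± 24.4 TPM. The ranges of these 4 genes did not overlap, and each exceeded the next in all 4 libraries. *Matn4* (28.6 ± 3.29 TPM), *Matn1* (27.2 ± 15.3 TPM) and *Matn2* (17.4 ± 2.44 TPM) formed a lower tier in which the ranges of neighbours overlapped. *Vcan* lay at 9.998 ± 4.66 TPM, with a range that overlapped that of *Matn2*. *Hapln3* was low at 2.61 ± 0.346 TPM, and *Hapln4*, a link protein known from brain, was lowest at 0.0659 ± 0.0223 TPM. In null chondrocytes the order by mean was the same for the 10 genes, but the ranges of *Hapln1* and *Matn3* now overlapped, *Matn4* lay above *Matn1* in all 4 libraries, and *Matn1*, *Matn2*, *Vcan*, *Hapln3* and *Hapln4* each overlapped the next. *Acan* exceeded *Vcan* 35.5- to 99.7-fold within a wild-type library, and *Matn3* made up 70.4% to 81.4% of the matrilin TPM.

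**Figure D1:**
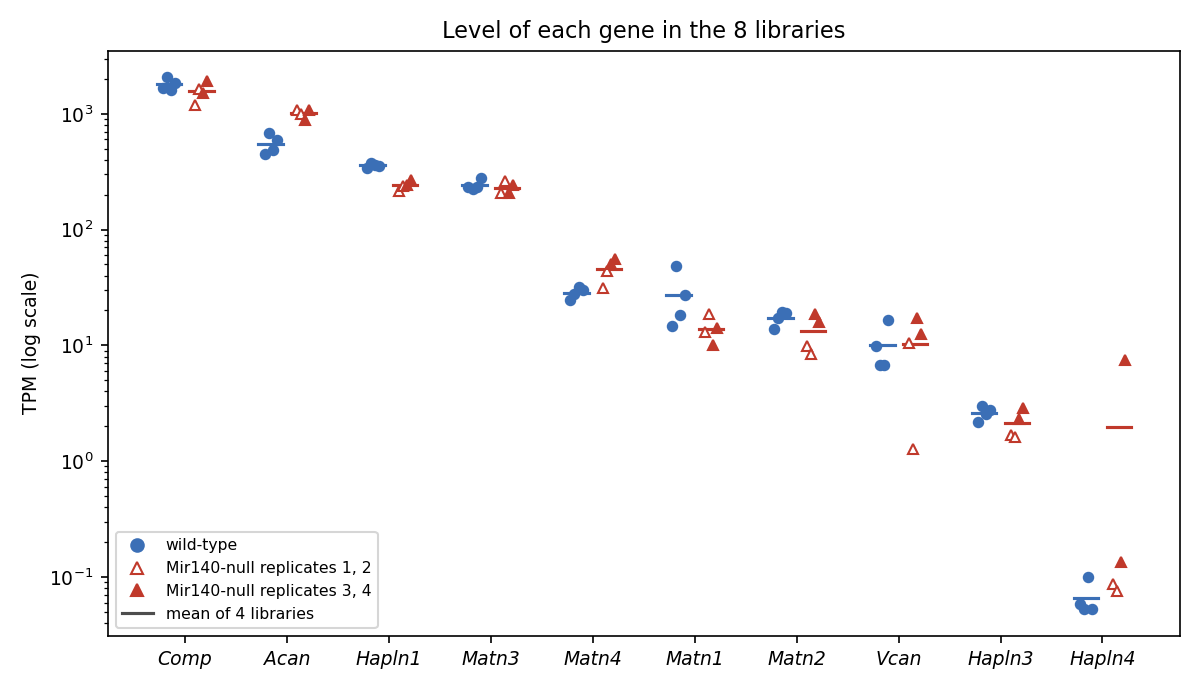
TPM on a log axis for the 10 genes, ordered by wild-type mean, with 1 point per library (circles wild-type, triangles *Mir140*-null, open triangles *Mir140*-null replicates 1 and 2) and bars at the mean of 4 libraries. *Acan* is higher and *Hapln1* lower in all *Mir140*-null libraries, and the single *Hapln4* point at 7.54 TPM is *Mir140*-null replicate 4.

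In *Mir140*-null chondrocytes, *Acan* rose and *Hapln1* fell, so that the message for the proteoglycan core and the message for its link protein moved apart. Without *Mir140*-null replicates 1 and 2 neither was called (log2 fold changes 0.84 and -0.48). Relative to *Col2a1*, *Hapln1* overlapped between the genotypes. *Matn4* also rose, by a margin close to the threshold. The other 6 tested genes, *Comp*, *Matn3*, *Matn1*, *Matn2*, *Vcan* and *Hapln3*, did not pass it. Genes were tested together with limma on log2(TPM + 1), and a gene was called at a Benjamini-Hochberg adjusted p under 0.05. Of the 9 tested members, 3 were called, 2 higher and 1 lower, beside 16.9% of all tested genes in either direction, 10.5% higher and 6.4% lower. Among tested genes with a mean of at least 5 TPM, 21.1% were called. The wild-type and null values did not overlap for 2 of the 9, against 25.9% of all tested genes. With 9 genes, nothing is read from either count about the set. The median log2 fold change was -0.22 for the 9 members and -0.01 for all tested genes.

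*Acan* (ENSMUSG00000030607, chr7:79053483-79115099 of mm10, plus strand) encodes aggrecan, the main proteoglycan of cartilage. Its level was 447, 681, 491 and 590.3 TPM in wild-type replicates 1 to 4. In *Mir140*-null replicates 1 to 4 it was 1085, 996, 876 and 1083 TPM. The lowest null library lay above the highest wild-type library. The means were 552 ± 105 and 1010.0 ± 98.5 TPM, a ratio of 1.83, and *Acan* moved from rank 247 to rank 134 of all listed genes. Its log2 fold change was 0.88 (standard error 0.15, 95% interval 0.55 to 1.22, limma adjusted p = 0.0107). Without *Mir140*-null replicates 1 and 2 the change was 0.84 (adjusted p = 0.0741), of nearly the same size but no longer called. The 2 libraries with few fibroblast markers averaged 1041 TPM of *Acan*, and the other 2 null libraries 979 TPM.

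*Vcan* (ENSMUSG00000021614, chr13:89655312-89742509, minus strand) encodes versican, the related proteoglycan of looser and fibrous matrices. Levels were 9.81, 6.83, 6.72 and 16.6 TPM in wild-type and 10.6, 1.26, 17.1 and 12.5 TPM in null libraries. The groups overlapped throughout, and *Mir140*-null replicate 2 was far below the rest. The log2 fold change was -0.21 (standard error 0.63, 95% interval -1.66 to 1.23, adjusted p = 0.841). It was 0.59 without *Mir140*-null replicates 1 and 2, 0.45 without replicate 2 alone and 0.04 without wild-type replicate 4, so even the direction rested on single libraries. The part of the fibroblast markers in the *Vcan* values was not tested.

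*Hapln1* (ENSMUSG00000021613, chr13:89539796-89611652, plus strand) encodes the cartilage link protein. The wild-type and null libraries gave 339, 378, 360.3 and 355 TPM, and 215, 238, 243 and 270.4 TPM, respectively. Every null library lay below every wild-type library, and the wild-type values were the least variable of the 10 genes, with a coefficient of variation of 4.51%. The means were 358 ± 16.1 and 241 ± 22.7 TPM, a ratio of 0.675. The log2 fold change was -0.57 (standard error 0.09, 95% interval -0.78 to -0.36, adjusted p = 0.0100). It was -0.48 (adjusted p = 0.0528) without *Mir140*-null replicates 1 and 2. The 2 null libraries left in that comparison, at 243 and 270.4 TPM, were still below the lowest wild-type library.

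*Hapln3* (ENSMUSG00000030606, chr7:79115102-79131018, minus strand) encodes a link protein that many tissues make. It lies tail to tail with *Acan*, with 2 bases between the annotated ends, and *Hapln1* and *Vcan* face each other in the same way across 43659 bases. Values were 2.16, 2.98, 2.54 and 2.75 TPM in wild-type and 1.70, 1.61, 2.32 and 2.87 TPM in null libraries. The groups overlapped, and the log2 fold change of -0.22 (standard error 0.16, 95% interval -0.59 to 0.15) was not called (adjusted p = 0.372). The 2 lowest values belonged to *Mir140*-null replicates 1 and 2, and without them the change was -0.00425 (adjusted p = 0.990). *Acan*, its neighbour, was called higher where *Hapln3* was not.

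*Hapln4* (ENSMUSG00000007594, chr8:70083457-70090862, plus strand) was not tested because too few libraries reached 0.5 TPM. It was measured at 0.0587, 0.0526, 0.0991 and 0.0532 TPM in wild-type and at 0.0864, 0.0754, 0.134 and 7.54 TPM in null libraries. All but 1 library were close to 0, and the mean of the null group rests on *Mir140*-null replicate 4 alone.

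The balance of the 2 main aggregate genes was read within each library, where scaling between libraries cancels. The ratio of *Acan* to *Hapln1* TPM was 1.32, 1.80, 1.36 and 1.67 in wild-type libraries. It was 5.04, 4.19, 3.61 and 4.00 in null libraries. The groups did not overlap, and the mean went from 1.54 ± 0.234 to 4.21 ± 0.602. As a ratio of 2 genes that were each called in opposite directions it is given as a description, with no test of its own.

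**Figure D2:**
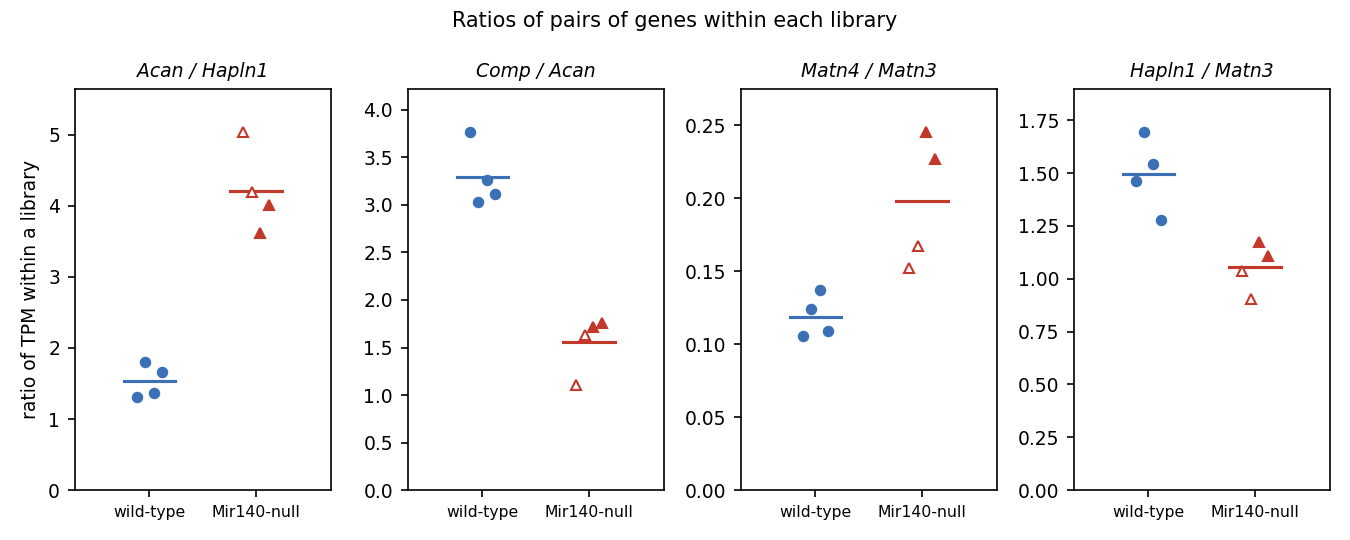
Ratio of TPM within each library for 4 pairs of genes (y axis from 0, circles wild-type, triangles *Mir140*-null, open for replicates 1 and 2, bars at the mean of 4 libraries). The ratio of *Acan* to *Hapln1* runs from 1.32 to 1.80 in wild-type and from 3.61 to 5.04 in null libraries. The 4 pairs shown do not overlap between genotypes, and each holds a gene that was called. The ratios of *Matn3* to *Matn1* and of *Acan* to *Vcan*, not drawn, overlap.

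*Comp* (ENSMUSG00000031849, chr8:70373558-70382066, plus strand) belongs to the thrombospondin family and binds fibrillar collagens. It was measured at 1682, 2066, 1600.4 and 1838 TPM in wild-type and at 1196, 1627, 1506 and 1908 TPM in null libraries. The groups overlapped, with *Mir140*-null replicate 1 lowest. The means were 1797 ± 205 and 1559 ± 295 TPM, and the log2 fold change was -0.22 (standard error 0.15, 95% interval -0.57 to 0.14, adjusted p = 0.353). It was -0.08 (adjusted p = 0.791) without *Mir140*-null replicates 1 and 2. *Comp* remained the most abundant of the 10 in all 8 libraries. The ratio of *Comp* to *Acan* was 3.03 to 3.77 in wild-type and 1.10 to 1.76 in null libraries, without overlap. In this ratio *Acan* was called and *Comp* was not, so it is a description with no test of its own. *Comp* made up 59.2% ± 1.38 of the summed TPM of the 10 genes in wild-type and 49.6% ± 4.34 in null libraries, while *Acan* made up 18.1% ± 1.52 and 32.5% ± 4.45. The sum itself was 3034 ± 334 and 3128 ± 369 TPM, and its ranges overlapped. Both shares are parts of this sum, so a larger share of *Acan* leaves less for *Comp*.

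*Matn3* (ENSMUSG00000020583, chr12:8947929-8972028, plus strand) encodes the most abundant matrilin in these cells. It was measured at 232, 223, 233 and 277 TPM in wild-type and at 207, 262, 207 and 244 TPM in null libraries. The ranges of the 2 groups overlapped, and the 95% interval of the log2 fold change, -0.34 to 0.20, was the narrowest among the genes not called (estimate -0.07, standard error 0.12, adjusted p = 0.698). The change was -0.10 (adjusted p = 0.677) without *Mir140*-null replicates 1 and 2. With *Hapln1* lower, *Hapln1* and *Matn3* no longer differed beyond their spread in null chondrocytes (241 ± 22.7 and 230.2 ± 27.6 TPM, *Hapln1* higher in 3 of 4 libraries).

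*Matn4* (ENSMUSG00000016995, chr2:164389393-164405160, minus strand) is a matrilin found in many connective tissues. It was measured at 24.5, 27.6, 32.1 and 30.2 TPM in wild-type and at 31.5, 43.9, 50.8 and 55.3 TPM in null libraries. *Mir140*-null replicate 1 lay within the wild-type range and the other 3 lay above it. The means were 28.6 ± 3.29 and 45.4 ± 10.4 TPM, a ratio of 1.59. The log2 fold change was 0.63 (standard error 0.18, 95% interval 0.21 to 1.04) and the adjusted p of 0.0498 was just under the threshold. The call was lost in 7 of the 8 comparisons without a single library, with adjusted p between 0.0813 and 0.109, and held only without *Mir140*-null replicate 1. Without *Mir140*-null replicates 1 and 2, the change was 0.87 (adjusted p = 0.0386), larger than with them. *Matn4* shares 2020 bases with the oppositely oriented gene *Rbpjl*, which averaged 0.794 and 1.10 TPM in the 2 groups. Within a library, the ratio of *Matn4* to *Matn3* was 0.105 to 0.137 in wild-type and 0.152 to 0.245 in null libraries, without overlap. As *Matn4* was itself called, this ratio is a description with no test of its own.

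*Matn1* (ENSMUSG00000040533, chr4:130944385-130955475, plus strand) encodes cartilage matrix protein, the founding matrilin. Its values were 14.7, 48.8, 18.3 and 27.2 TPM in wild-type and 13.0, 18.6, 10.02 and 14.2 TPM in null libraries. The wild-type libraries differed among themselves by 3.33-fold, more than the 1.95-fold difference between the means. The log2 fold change was -0.80 (standard error 0.36, 95% interval -1.62 to 0.02) and was not called (adjusted p = 0.154). Without *Mir140*-null replicates 1 and 2 it was -0.98 (adjusted p = 0.261), and without wild-type replicate 2, the highest library, it was -0.48.

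*Matn2* (ENSMUSG00000022324, chr15:34306677-34436273, plus strand) is a matrilin of loose connective tissue and many other sites. It was measured at 13.9, 17.4, 19.3 and 18.9 TPM in wild-type and at 9.96, 8.37, 18.8 and 16.0 TPM in null libraries. *Mir140*-null replicates 1 and 2 were the 2 lowest of all libraries, and the other null libraries lay within the wild-type range. The log2 fold change was -0.42 (standard error 0.25, 95% interval -0.99 to 0.16, adjusted p = 0.275), and without these 2 libraries it was 0.01 (adjusted p = 0.978). These are the libraries with 602 and 759 TPM of fibroblast and perichondrium markers, and the part of those markers in the *Matn2* values was not tested.

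**Figure D3:**
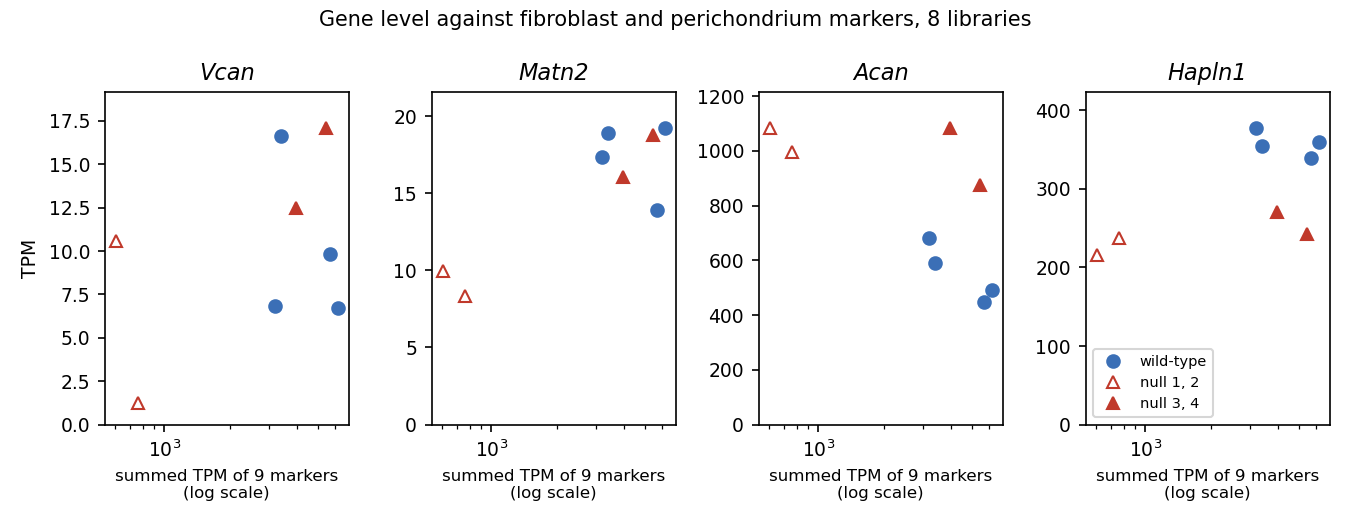
TPM of 4 genes (y axis from 0) against the summed TPM of 9 fibroblast and perichondrium markers (log axis), 1 point per library (circles wild-type, filled triangles *Mir140*-null replicates 3 and 4, open triangles replicates 1 and 2). *Matn2* is lowest in the 2 libraries with 602 and 759 TPM of markers, whereas *Acan* is above and *Hapln1* below the wild-type libraries in null libraries at both ends of the axis.

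**Figure D4:**
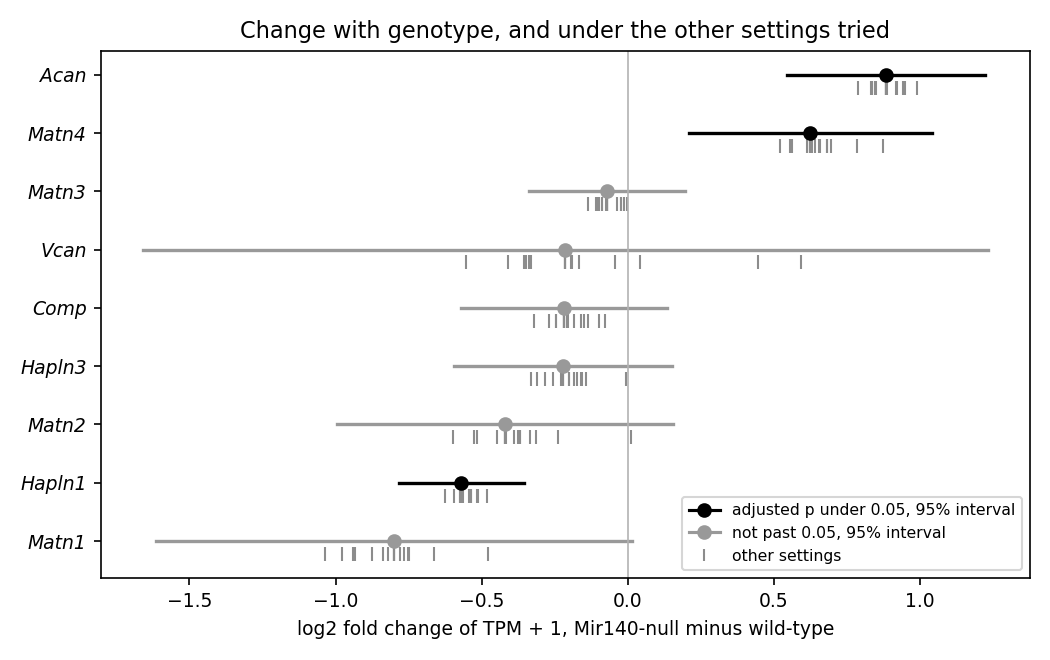
Log2 fold change of TPM + 1 in *Mir140*-null minus wild-type libraries for the 9 tested genes, as a point with its 95% interval (black, adjusted p under 0.05; grey, not past it), with a tick for each other setting tried. *Acan* and *Matn4* stay right of 0 and *Hapln1* left of 0 in every setting drawn, whereas *Vcan* and *Matn2* cross it.

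The hyaluronan chain that carries aggrecan is made at the cell surface by hyaluronan synthases and is bound there by the receptor CD44. Of 13 genes for hyaluronan synthesis, binding and turnover, 10 were tested, 2 rose and none fell. Over all tested genes, 10.5% were called higher and 6.4% lower. The median log2 fold change was -0.04 for the 10 and -0.01 for all tested genes. *Has2*, a synthase needed for normal growth of the skeleton, was measured at 20.4, 28.4, 22.1 and 23.8 TPM in wild-type and at 141, 104, 66.9 and 75.4 TPM in null libraries. All null libraries lay above all wild-type libraries, with a log2 fold change of 1.93 (standard error 0.23, adjusted p = 0.00529). *Cd44* was measured at 65.1, 111, 100.2 and 99.2 TPM in wild-type and at 233, 237, 188 and 221 TPM in null libraries, again without overlap, with a log2 fold change of 1.24 (standard error 0.17, adjusted p = 0.00699). Without *Mir140*-null replicates 1 and 2 the changes were 1.55 for *Has2* (adjusted p = 0.0162) and 1.14 for *Cd44* (adjusted p = 0.0569). *Has1*, the synthase with the higher wild-type level and named here after its values were seen, was not called (58.1 ± 12.6 and 53.5 ± 10.6 TPM, adjusted p = 0.696). *Acan*, *Has2* and *Cd44* were thus higher in null chondrocytes, and *Hapln1* lower.

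**Figure D5:**
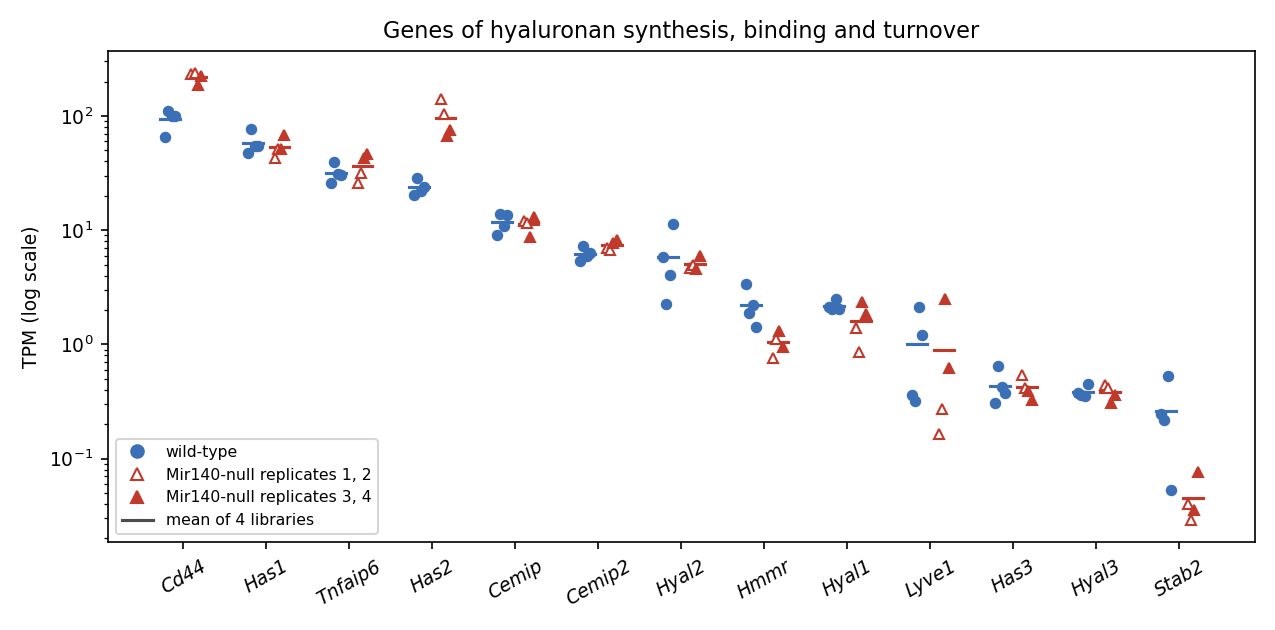
TPM on a log axis for the 13 hyaluronan genes, ordered by wild-type mean, with 1 point per library (circles wild-type, triangles *Mir140*-null, open for replicates 1 and 2) and bars at the mean of 4 libraries. *Has2* and *Cd44* are separated by genotype, at 20.4 to 28.4 against 66.9 to 141 TPM and at 65.1 to 111 against 188 to 237 TPM. *Hmmr*, named after its values were seen, is separated too but lower in null libraries, at 1.43 to 3.40 against 0.753 to 1.32 TPM. It was not called (limma adjusted p = 0.0584).

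The chondroitin sulfate chains of aggrecan are built by a set of transferases, sulfotransferases and sulfate suppliers. Of 18 such genes 17 were tested, 3 rose and 1 fell, beside 16.9% of all tested genes called in either direction. The median log2 fold change was 0.24, against -0.01 for all tested genes. *Chst11*, a chondroitin 4-O-sulfotransferase, went from 55.3 ± 17.5 to 122 ± 25.6 TPM (log2 fold change 1.17, standard error 0.27, adjusted p = 0.0266). *Slc26a2*, the sulfate transporter of chondrocytes, went from 23.9 ± 4.89 to 11.2 ± 2.92 TPM (log2 fold change -1.04, standard error 0.22, adjusted p = 0.0193). The other 2 called genes, named after their values were seen, were *Xylt1*, which starts the chain (log2 fold change 0.78, adjusted p = 0.0384), and *Chpf2*, a polymerizing factor (0.85, adjusted p = 0.0317). Without *Mir140*-null replicates 1 and 2, none of the 17 was called, while the log2 fold change was 0.92 for *Chst11* (adjusted p = 0.169) and -0.78 for *Slc26a2* (adjusted p = 0.0822).

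Of the 6 fibril collagen genes, 3 fell and none rose, beside 6.4% of all tested genes called lower and 21.1% called in either direction among those with a mean of at least 5 TPM. The median log2 fold change was -0.46, against -0.01 for all tested genes. *Col11a1* went from 3110.5 ± 177 to 2231 ± 414 TPM (log2 fold change -0.50, standard error 0.14, adjusted p = 0.0469) and *Col9a3* from 3220 ± 254 to 2316 ± 273 TPM (-0.48, standard error 0.11, adjusted p = 0.0266). *Col9a1*, named after its values were seen, was the third (-0.43, adjusted p = 0.0467). None of these 3 calls held without *Mir140*-null replicates 1 and 2 or after median-ratio scaling of the libraries. The log2 fold changes were then -0.44 and -0.46 for *Col11a1*, and -0.47 and -0.44 for *Col9a3*.

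Proteinases that cleave aggrecan, versican or COMP, and their inhibitor *Timp3*, numbered 10. Of these 8 were tested and limma called none (1 at an unadjusted p under 0.05), beside 16.9% of all tested genes in either direction. Their median log2 fold change was 0.18, against -0.01 for all tested genes. The lists in this paragraph are short, so nothing is read about them from a lack of calls. The other thrombospondins, relatives of *Comp*, did not pass the limma test either, with 1 of 4 at an unadjusted p under 0.05. *Thbs3* was measured at 377 ± 26.1 and 379 ± 68.7 TPM, *Thbs1* at 433 ± 82.8 and 314 ± 39.1 TPM, *Thbs2* at 36.6 ± 7.42 and 18.9 ± 16.6 TPM and *Thbs4* at 99.3 ± 47.0 and 55.1 ± 60.8 TPM in wild-type and null libraries. *Thbs2* and *Thbs4* were lowest in *Mir140*-null replicates 1 and 2, at 4.24 and 5.50 TPM and at 6.34 and 5.48 TPM, where the fibroblast markers were low too, and the part of those markers was not tested. The brain lecticans and link protein were low: *Ncan* was at most 0.132 TPM and *Hapln2* at most 0.180 TPM in any library, and *Bcan*, the only 1 of the 3 tested, was not called (2.80 ± 0.947 and 5.50 ± 3.48 TPM, adjusted p = 0.332). Ligands of the C-terminal lectin domain of aggrecan and versican were not called either, with *Tnc* at 31.8 ± 7.39 and 26.4 ± 18.4 TPM, *Fbln1* at 5.91 ± 0.674 and 4.52 ± 2.12 TPM and *Fbln2* at 7.09 ± 3.55 and 4.97 ± 3.76 TPM, and *Tnr* too low to test. Of the SOX factors that drive cartilage matrix genes, *Sox9* (146 ± 20.7 and 178 ± 43.4 TPM), *Sox5* (45.2 ± 8.23 and 50.2 ± 6.79 TPM) and *Sox6* (80.2 ± 20.2 and 75.1 ± 12.4 TPM), none was called. Among these lectin ligands and SOX factors, and for *Bcan*, limma gave 0 genes at an unadjusted p under 0.05.

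Patterns over the 8 libraries were compared by the root-mean-square difference of log2(TPM + 1), after centring each gene on its own mean. The genes nearest to a member were sought among the 9468 tested genes with a mean of at least 5 TPM. For *Acan* they were *Spred1* (difference 0.07), *Col6a3* (0.08) and *Irak3* (0.08), against a median of 0.51 over all genes. For *Hapln1* they were *Emd* (0.07), *Gprasp1* (0.08) and *Adcy2* (0.08), and for *Comp* *Adamts3* (0.07), *Cryzl2* (0.08) and *Itpr3* (0.08). For *Matn1* the nearest genes were farther away: *Frzb* (0.23), *Il17b* (0.26) and *Flnc* (0.29). Its median over all genes was larger too, at 0.75, against 0.47 for *Hapln1* and 0.40 for *Comp*. *Col6a3* encodes a chain of the pericellular collagen VI and averaged 453 TPM in wild-type and 868 TPM in null libraries.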

How the data were processed

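RNA-seq of rib chondrocytes from wild-type and *Mir140*-null mice (4 libraries each) was re-analysed, with groups and replicate numbers from the sample labels. Values were deposited as gene-level TPM, 1 set per library, which the authors made with Salmon on the mm10 transcriptome. FastQC 0.11.7 and DESeq2 are named in the submitters' processing notes, and the study estimated batch effects with RUVSeq. The 540 repeat lines per library held identical values and were counted once, after which each library summed to 1000000 TPM. This is also why no scaling between libraries is visible in them. TPM keep no depth, so no counting error was computed.

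Symbols and positions came from GENCODE M21 (99.8% of identifiers). The test used genes at 0.5 TPM or more in at least 4 libraries and limma (version 3.58.1, R version 4.3.3) on log2(TPM + 1) with a mean-variance trend, genotype as the only term, two-sided, adjusted by the Benjamini-Hochberg method over all tested genes. The pseudocount of 1 understates changes of low genes. The fit was tested on simulated data. Tables and figures used Python 3.11.15, pandas 2.3.3 and matplotlib 3.10.9.

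The members, gene lists and tests were chosen with earlier results of these data known. Genes named beyond the 10 members followed a rule, with some exceptions that were named after values were seen. The exceptions were *Has1*, *Hmmr*, *Xylt1*, *Chpf2*, *Col9a1*, *Col2a1*, *Rbpjl*, *Timp3*, *Tnnt3*, *Ucma* and *Pdgfra*. By the rule, each list gave up to 2 called genes without overlap and with the largest change. Lists of 4 or fewer genes were named in full. The rule also covered *Wwp2*, *Mir140* and the 3 nearest patterns of *Acan*, *Hapln1*, *Comp* and *Matn1*. Marker lists covered chondrocytes, hypertrophic chondrocytes, fibroblasts and perichondrium, osteoblasts, muscle, red blood cells, leukocytes and endothelium. The summed level of hypertrophic markers was 156 to 338 TPM in wild-type and 170.2 to 279 TPM in null libraries, that of osteoblast markers 9.97 to 16.9 and 3.86 to 14.2 TPM, that of red blood cell markers 646 to 1854 and 256 to 1725 TPM, that of leukocyte markers 22.1 to 39.7 and 16.8 to 30.9 TPM, and that of endothelial markers 5.56 to 20.9 and 3.41 to 27.1 TPM. Alternatives were a pseudocount of 0.1, no filter, a mean of at least 5 TPM, median-ratio scaling, TPM without mitochondrially encoded genes, a replicate block, 1 factor of unwanted variation from residuals (computed by singular value decomposition), sample quality weights, each library left out, and both *Mir140*-null libraries with the fewest genes left out.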

Additional observations from a re-analysis of the deposited data

Results flagged for a closer look

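Values were examined for a library far from the other 3 of its genotype, by the gap to its nearest neighbour over the range of the group (Dixon's test at the 95% level). Of 52 groups of values, 4 were past it, where chance gives about 1 in 20. *Hapln4* was 7.54 TPM in *Mir140*-null replicate 4 and at most 0.134 TPM in any other library, and in wild-type replicate 3 it was 0.0991 TPM, apart from its group only at a level near 0. *Acan* made up 39.2% of the summed TPM of the 10 genes in *Mir140*-null replicate 1, against 29.9% to 31.2% in the other null libraries. The ratio of *Acan* to *Vcan* was 789 in *Mir140*-null replicate 2, where *Vcan* was at 1.26 TPM, against 51.2 to 103 in the other null libraries.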

How the results depend on the processing

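*Acan* and *Hapln1* kept their direction and their call in 16 of 17 alternatives each, and lost the call without both *Mir140*-null libraries with the fewest genes (0.84 and -0.48). *Comp*, *Matn1*, *Matn3* and *Hapln3* stayed uncalled, in the same direction, in every alternative that tested them. *Matn4* (0.63) was not called at a pseudocount of 0.1 (0.64), without a filter (0.63) or with the replicate block (0.63, adjusted p = 0.0501), and ranged from 0.52 to 0.79 when single libraries were left out. *Vcan* turned positive without wild-type replicate 4 (0.04), without *Mir140*-null replicate 2 (0.45) and without both libraries (0.59), within -0.55 to 0.45 when single libraries were left out. *Matn2* turned positive without both libraries (0.010) and was called lower with 1 factor of unwanted variation (-0.42, adjusted p = 0.0405).

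Over all genes, 1797 were called higher and 1100 lower. Without a filter these were 977 and 539, with the replicate block 671 and 454, and without both libraries 357 and 210. The number lower was 605 in a separate fit of the 9668 genes with a mean of at least 5 TPM. It was 2016 with 1 factor of unwanted variation. Leaving out single libraries gave 779 to 1553 higher and 419 to 1214 lower. Of the calls, 62.0% were higher, against 73.1% in the separate fit at a mean of at least 5 TPM. The median log2 fold change of that fit was 0.11. Its genes were filtered on the mean alone, so they are not the 9468 tested genes with such a mean used above. Replicate numbers did not pair the libraries (correlations of same-numbered deviations -0.01 to 0.07), so the block is given only here.

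Fibril collagens called went from 3 to 0 without a filter, with median-ratio scaling, with the replicate block and without both libraries, to 1 without mitochondrially encoded genes, and to 0 to 3 without single libraries. Chondroitin sulfate genes went from 4 to 1 without a filter, 7 without mitochondrially encoded genes, 0 with the replicate block, 7 with 1 factor of unwanted variation, 0 without both libraries and 0 to 4 without single libraries. Without both libraries 1 of the other lecticans, 1 proteinase gene and 1 hyaluronan gene, down from 2, were called. With 1 factor of unwanted variation 2 thrombospondins and 1 proteinase gene were called, and without single libraries 0 to 1 of each. The cause of these changes was not tested. Without a filter more genes were tested (36617 against 17177), and a left-out library leaves fewer samples. Without read counts, the precision of low values such as those of *Hapln4* could not be given.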

Other observations

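*Acan*, *Comp* and *Hapln1* were also set against *Col2a1*, which encodes the main collagen of cartilage. *Col2a1* averaged 57785 ± 6626 TPM in wild-type libraries, went to 41414 ± 7681 TPM in null libraries and was not called (log2 fold change -0.49, limma adjusted p = 0.0695). The ratio of *Acan* to *Col2a1* TPM was 0.00725 to 0.0111 in wild-type and 0.0206 to 0.0315 in null libraries, without overlap. The ratio of *Comp* to *Col2a1* did not overlap either, by a narrow margin, at 0.0273 to 0.03362 and 0.03363 to 0.0429. The ratio of *Hapln1* to *Col2a1* overlapped, at 0.00550 to 0.00752 and 0.00491 to 0.00691, so *Hapln1* separated the genotypes in TPM but not relative to *Col2a1*. These ratios were not tested.

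*Ucma*, a small secreted cartilage protein and the only chondrocyte marker called higher, was measured at 653 to 819 TPM in wild-type and 1007 to 1400.03 TPM in null libraries (log2 fold change 0.64, limma adjusted p = 0.0179). *Pdgfra*, a mesenchymal receptor, was the only fibroblast marker not low in *Mir140*-null replicates 1 and 2. It ranged from 11.8 to 19.8 TPM in wild-type libraries and from 31.5 to 36.5 TPM in null libraries (log2 fold change 1.03, adjusted p = 0.00846). *Ucma*, *Pdgfra* and *Col2a1* are named after their values were seen.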
